A study of Solanum lycopersicum with 12 samples.

Results

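The loci described here are 145 of the 35976 loci measured in tomato (Solanum lycopersicum) whose transcript level was lower in leaf and higher in root after plants under salinity were sprayed with PSI-475, a biostimulant. They were chosen on group means of FPKM, a fragment count scaled by locus length and library size. A member had at least 10 FPKM in untreated leaf, and its untreated leaf mean was at least 1.5 times its treated leaf mean. It also had at least 5 FPKM in treated root, at least 2 times its mean in untreated root. All 12 libraries entered this choice, so the leaf and root changes of the members are given as a description, with no test.

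The 4 groups were treated leaf, untreated leaf, treated root and untreated root, with 3 libraries each, all from wild-type plants (WT) watered with 50 mM NaCl (5.8 dS per m). Treated plants were sprayed on the foliage with PSI-475 at 2.5 mL per L at an age of 65 days, 1 day before salinity began, and again after 27 days of it, and untreated plants received water. Young leaves and roots were taken at 127 days, 2 hours after the light period ended. There was no group without salt among these libraries, so every level here is a level under salinity. The labels do not say whether libraries of a group came from separate plants, so the spread between them may be technical.

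Leaf and root are joined by xylem and phloem, through which water, ions, sugars, hormones and small RNAs and proteins pass, so a foliar spray can be accompanied by changes below ground. Under salinity the root meets sodium and chloride first, and the leaf receives what the xylem delivers. An mRNA level per library is a relative measure: in tissue samples, fewer cells of a type and less RNA per cell cannot be told apart. The identifiers of tomato loci carry the chromosome in their digits after Solyc and the order along it in the digits after g. No file gives gene names for them, and 0 of the 35976 identifiers were found in the RefSeq gene table of assembly SLM_r2.1, so members are given by identifier, with no gene name or role. For the same reason the tissue labels were not checked against marker genes.

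The choice began with 8730 loci that met both level floors. Of these, 611 met the leaf condition, 1316 met the root condition, and the 145 members met both. The members were 23.7% of the loci that met the leaf condition and 11% of those that met the root condition. For comparison, 15.1% of all loci at the floors met the root condition and 7% met the leaf condition. The other loci that were lower in leaf divided into 409 whose root means differed by less than 2-fold either way and 57 that were lower by 2-fold or more in treated root. Among loci at least 2-fold higher in treated root, 1071 had leaf means within 1.5-fold of each other and 100 were at least 1.5-fold higher in treated leaf as well. Most loci that were higher in treated root thus had leaf levels that differed little. The 145 members and the 100 loci higher in both organs are not like counts. The floor of 10 FPKM in untreated leaf leaves out loci that were higher in treated leaf but began below it.

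**Figure D1:**
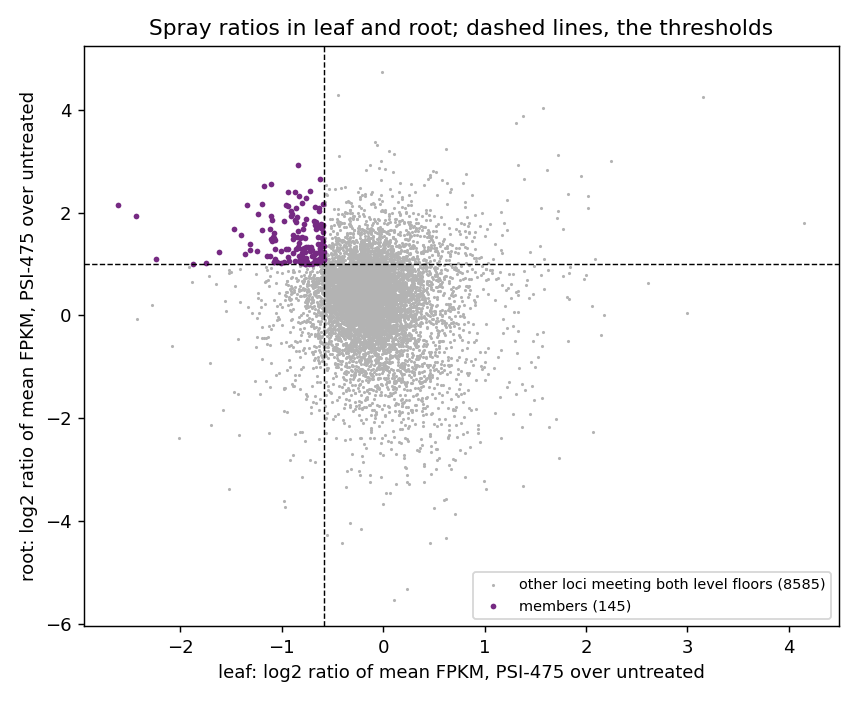
Log2 ratios of mean FPKM, PSI-475 over untreated, in leaf (x axis) and in root (y axis) for the 8730 loci that met both level floors. Purple points are the 145 members, grey points the other loci, and dashed lines the ratio thresholds. Most members lie close to the corner of the thresholds, and 3 lie beyond a 4-fold difference in leaf.

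Most members differed by modest amounts. In leaf the untreated mean was a median of 1.74 times the treated mean (quartiles 1.58 and 1.97), and 109 members lay between 1.5 and 2-fold. Another 30 lay between 2 and 3-fold, 3 between 3 and 4-fold and 3 above 4-fold. In root the treated mean was a median of 2.51 times the untreated mean (quartiles 2.21 and 3.40). There, 95 members lay between 2 and 3-fold, 29 between 3 and 4-fold, 13 between 4 and 5-fold and 8 above 5-fold. Over the 8730 loci at the floors, the median ratio of treated to untreated was 0.903 in leaf and 1.30 in root, so the whole distribution leaned in the same directions. The size of the leaf difference said little about the size of the root difference: over the 145 members, log2 ratios in leaf and in root had Pearson's r = -0.0971 and Spearman's rho = -0.118. These points share the 12 libraries and the thresholds that chose them.

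Many members sat near a threshold. The member closest to the leaf ratio, Solyc01g066870.3, had an untreated leaf mean 1.5 times its treated one, and the nearest locus outside, Solyc08g068100.3, had 1.499 times. For the root ratio, the nearest member was Solyc03g118905.1 at 2.004-fold and the nearest outsider Solyc11g056650.2 at 1.987-fold. The floor in untreated leaf lay between Solyc05g015630.3 at 10.08 FPKM and Solyc02g067660.3 at 9.77 FPKM. The floor in treated root lay between Solyc05g052350.3 at 5.09 FPKM and Solyc02g071110.3 at 4.56 FPKM. The ratio thresholds therefore cut through a continuous range of loci.

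Above the floors that the rule set, the members' levels were widely spread. In treated leaf their group means ran from 2.60 to 609.7 FPKM with a median of 17.3, against 10.1 to 1013 FPKM with a median of 29.9 in untreated leaf. In treated root they ran from 5.09 to 1956 FPKM with a median of 26.2, against 1.23 to 973 FPKM with a median of 10.05 in untreated root. In the separate libraries the median member had 17.7 to 18.1 FPKM in treated leaf and 28.9 to 32.0 FPKM in untreated leaf. It had 24.4 to 26.1 FPKM in treated root and 9.72 to 10.5 FPKM in untreated root. No treated library's median reached into the range of the untreated libraries of its tissue.

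**Figure D2:**
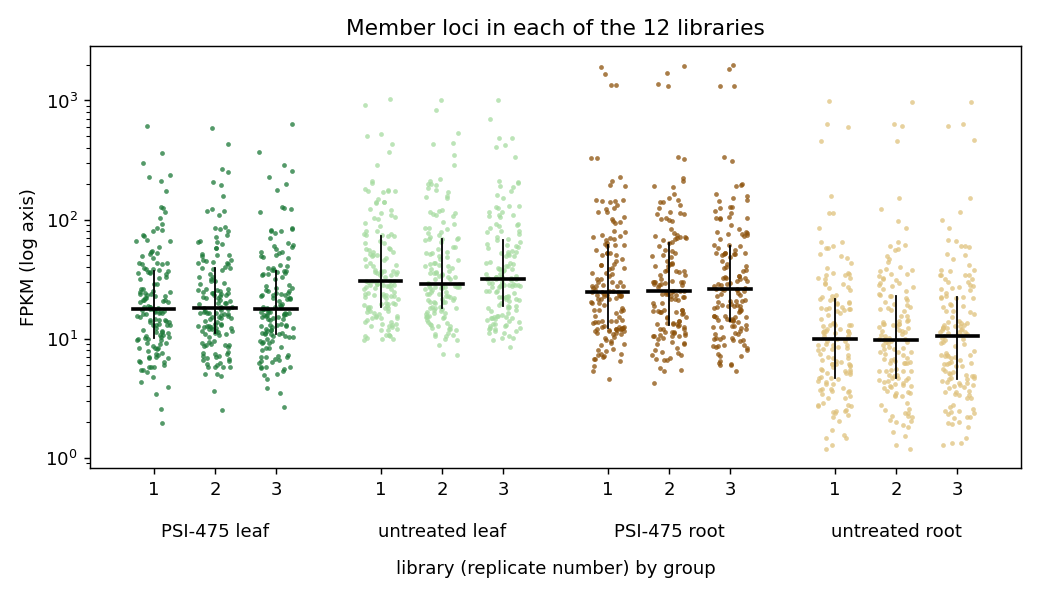
FPKM (log axis) of the 145 members in each of the 12 libraries. Points are loci, horizontal lines medians and vertical lines quartiles; medians are 17.7 to 18.1 in PSI-475 leaf, 28.9 to 32.0 in untreated leaf, 24.4 to 26.1 in PSI-475 root and 9.72 to 10.5 in untreated root.

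As a part of each library, the members held 0.984% ± 0.0146 of the fragments in treated leaf and 1.83% ± 0.0508 in untreated leaf (SD, n = 3 each). In root they held 2.18% ± 0.0302 of the fragments in treated plants and 0.866% ± 0.00407 in untreated plants (SD, n = 3 each). A few abundant loci carried much of the root value. Solyc07g040960.1, Solyc05g052570.3, Solyc03g118470.3 and Solyc03g026270.2 together held 53.7% of the members' fragments in treated root and 55.5% in untreated root. In leaf the same 4 loci held 27.2% of the members' fragments in treated plants and 27.95% in untreated plants.

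Single libraries were compared member by member. Every treated leaf library lay below every untreated leaf library for 142 of the 145 members, and over all 18405 loci tested in leaf this held for 29.2% and over those at the floors for 38.6%. Every treated root library lay above every untreated root library for all 145 members, and over all 18277 loci tested in root this held for 53.6% and over those at the floors for 63.8%. In limma, fitted on log2(FPKM + 1) over all loci of a tissue, 142 members were called lower in treated leaf (Benjamini-Hochberg adjusted p under 0.05), and 18.8% of all tested loci and 26.9% of those at the floors were. All 145 members were called higher in treated root, against 52.0% of all tested loci and 62.8% of those at the floors. The rule chose the members on these contrasts in these libraries, so their counts follow from the choice, test nothing, and are given only beside the background.

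The 3 members whose leaf groups overlapped were picked out after their values were seen. Solyc03g118905.1 had 6.0, 7.77 and 4.94 FPKM in treated leaf, against 12.4, 7.44 and 12.03 FPKM in untreated leaf, so a single untreated library lay inside the treated range. Solyc08g078670.2 had 47.8, 62.8 and 53.6 FPKM in treated leaf, against 123, 110 and 62.2 FPKM in untreated leaf. Solyc09g065155.1 had 20.3, 30.3 and 23.6 FPKM in treated leaf, against 50.4, 42.5 and 27.2 FPKM in untreated leaf. In Solyc08g078670.2 and Solyc09g065155.1 the overlap lay between 2 libraries. Untreated leaf replicate 3, the lowest of its group, was below treated leaf replicate 2, the highest of its group.

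Untreated leaf replicate 3 had the most members far from the other libraries of its group. In untreated leaf replicate 3, 22 members were at least 1.2 times the mean of the other 2 libraries of the group and 23 were below it by that factor or more, a factor picked after the values were seen. For the other 11 libraries the counts ran from 3 to 15 members above and from 4 to 18 below. The same counts over the loci at the floors are not given. A trait of the members thus cannot be told from a general property of that library. Without untreated leaf replicate 3 the rule gave 144 loci, of which 125 were members, so 20 members no longer met it. For the other 11 libraries 4 to 15 members were lost in this way. The median coefficient of variation of the members was 6.17% in treated leaf, 9.42% in untreated leaf, 6.59% in treated root and 6.23% in untreated root. Over the 8730 loci at the floors it was 5.81%, 8.68%, 5.53% and 4.33% in the same groups.

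Replicates that took no part in a choice were also examined. When replicate 1 of every group was set aside, the same rule applied to replicates 2 and 3 chose 145 loci, of which 120 were members. Among the libraries set aside, 143 of these 145 were lower in treated than in untreated leaf and also higher in treated than in untreated root. Both ratio thresholds were met there by 85 of them, or 58.6%, against 2.09% of all 8671 loci that met the floors in the other replicates. The directions were seen again for 157 of 160 loci with replicate 2 set aside and for 139 of 145 with replicate 3. Over all loci that met the floors in the other replicates, 47.2%, 50.9% and 47.7% showed both directions with replicate 1, 2 and 3 set aside. With replicate 2 set aside, 88 of the 160 loci chosen met both ratios in the libraries set aside, or 55.0%, against 1.57%. With replicate 3 set aside, 80 of 145 did, or 55.2%, against 2.15%. The median ratio in the libraries set aside was 1.63 to 1.71 for untreated over treated leaf and 2.50 to 2.61 for treated over untreated root. Replicate numbers were used here only as names of the libraries, and with 1 library per group set aside there is no test. The libraries set aside may come from the same plants as the others, and the rule was set with earlier results of these data known. The values thus describe the spread between libraries and are no independent check of the members. Both directions were seen in 95.9% to 98.6% of the chosen loci, and both thresholds were met again by 55.0% to 58.6%.

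The members were next described by the organ in which they were higher. In treated plants 99 members, 68.3%, had a higher mean in root than in leaf, and among all loci at the floors 59.7% did. In untreated plants 130 members, 89.7%, had a higher mean in leaf, and among the loci at the floors 64.0% did. The rule asks for a level in untreated leaf, asks for none in untreated root and moves both organs, so it favours this change of balance. Sorted by both comparisons, 84 members were higher in root in treated plants and higher in leaf in untreated ones, 46 were higher in leaf in both, and 15 were higher in root in both. The reverse change was not possible, since every member is lower in treated leaf and higher in treated root by the rule. In limma over all 12 libraries, 88 members were called higher in treated root than in treated leaf (44.9% of all 19324 tested loci were, and 48.6% of those at the floors), and 42 were called higher in treated leaf (33.4% and 31.3%). In untreated plants 13 members were called higher in root (33.1% of tested loci and 27.9% at the floors) and 126 higher in leaf (48.1% and 55.2%). Both calls of a change in balance were made for 69 of the 145 members, 47.6%, against 16.3% of the loci at the floors. For 21 members at least 1 of the tissue comparisons gave no call.

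**Figure D3:**
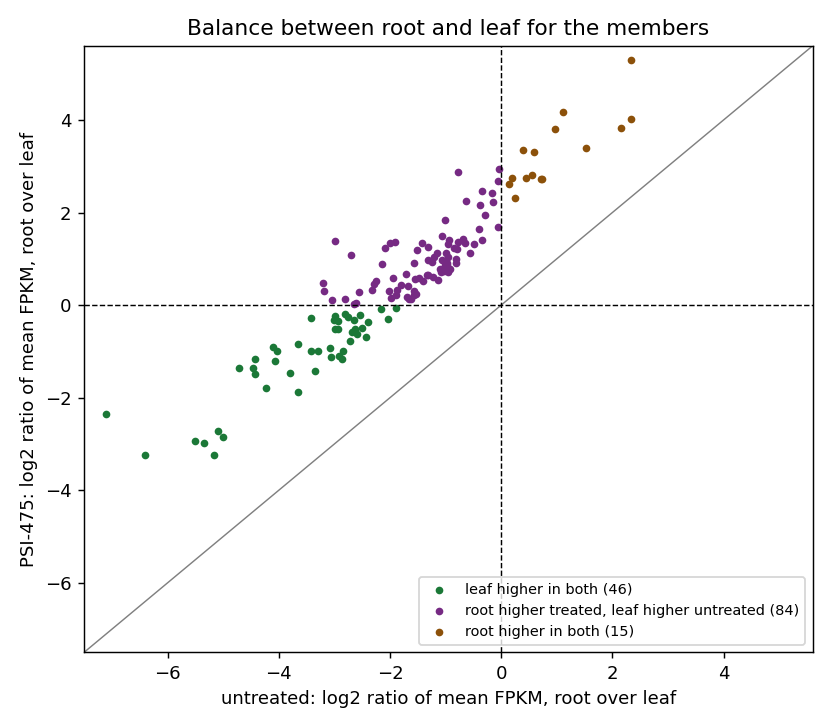
Log2 ratio of mean FPKM, root over leaf, in PSI-475 plants (y axis) and in untreated plants (x axis) for the 145 members. The grey line marks equal ratios and dashed lines equal levels in the organs; 84 members (purple) are higher in root in PSI-475 plants and in leaf in untreated plants, 46 (green) stay higher in leaf and 15 (brown) stay higher in root.

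The 84 members that changed sides made up 57.9% of the group, against 29.8% of the loci at the floors. In treated plants their root mean was a median of 1.87 times their leaf mean (range 1.02 to 7.65), and in untreated plants their leaf mean was a median of 2.32 times their root mean (range 1.03 to 9.27). Their median level was 16.1 FPKM in treated leaf and 28.6 FPKM in untreated leaf. In root it was 28.4 FPKM in treated and 11.6 FPKM in untreated plants. The median in treated root was thus close to that in untreated leaf, while the median in treated leaf was above that in untreated root. In 47 of the 84, treated root had the highest mean of all 4 groups, and in the other 37 untreated leaf did.

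The most abundant member, Solyc07g040960.1 on chromosome 7, was among these 84. It had 608, 591 and 630 FPKM in treated leaf, against 1031, 1002 and 1006 FPKM in untreated leaf. In root it had 1923, 1964 and 1981 FPKM in treated plants, against 983, 972 and 965 FPKM in untreated plants. Its root level was 3.21 times its leaf level in treated plants, while the organs of untreated plants were near equal, with no call between them in limma. It stood close to the root threshold and missed the rule without treated root replicate 3. Solyc05g052570.3 on chromosome 5 had 366, 433 and 371 FPKM in treated leaf, against 921, 839 and 699 FPKM in untreated leaf, where its libraries were widely spread. Its root levels were 1684, 1713 and 1844 FPKM in treated plants, against 636, 631 and 633 FPKM in untreated plants. Treated and untreated libraries of this locus did not overlap in either organ. Solyc03g026270.2 on chromosome 3 had 301, 265 and 287 FPKM in treated leaf, against 525, 530 and 481 FPKM in untreated leaf. In root it had 1344, 1322 and 1315 FPKM in treated plants, against 459, 458 and 468 FPKM in untreated plants. All 3 abundant loci were 3.21 to 4.67 times as high in root as in leaf in treated plants, against 1.04 to 1.29 times as high in leaf as in root in untreated ones.

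Among the 84, Solyc09g092130.3 and Solyc02g036370.3 had the steepest leaf differences, well above the median of 1.71-fold for these loci. Solyc02g036370.3 on chromosome 2 had 42.6, 39.0 and 36.9 FPKM in treated leaf, against 172, 184 and 204 FPKM in untreated leaf, a 4.73-fold difference. Its root levels were 94.0, 103 and 104 FPKM in treated plants, against 47.3, 46.4 and 46.6 FPKM in untreated plants. Solyc09g092130.3 on chromosome 9 was lower by 5.41-fold, with 2.59, 2.53 and 2.69 FPKM in treated leaf, against 14.96, 13.2 and 14.1 FPKM in untreated leaf. In root it had 7.19, 7.24 and 6.04 FPKM in treated plants, against 1.48, 1.88 and 2.00 FPKM in untreated plants. Both loci were lower in treated leaf than in treated root, and in neither organ did the treated and untreated libraries overlap.

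The largest root ratios belonged to loci of differing levels in treated root. Solyc10g086240.2 on chromosome 10 had the largest, 7.60-fold, with 15.3, 16.9 and 19.1 FPKM in treated root, against 2.41, 1.99 and 2.35 FPKM in untreated root. Its leaf levels were 7.32, 8.59 and 8.47 FPKM in treated plants, against 16.5, 13.5 and 13.8 FPKM in untreated plants. Solyc03g005570.3 on chromosome 3 had 115, 115 and 102 FPKM in treated root, against 19.9, 17.6 and 19.6 FPKM in untreated root, a 5.83-fold difference. In leaf it had 14.0, 15.9 and 15.8 FPKM in treated plants, against 30.6, 38.9 and 28.8 FPKM in untreated plants. Solyc03g005570.3 was 7.30 times as high in root as in leaf in treated plants, against 1.72 times as high in leaf as in root in untreated ones.

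In untreated plants the 46 members that stayed higher in leaf had a wider median gap between organs than the other 2 sets. This follows from the sorting: the rule moves every member toward root, so only those with a wide gap could stay higher in leaf. Their leaf mean was a median of 1.93 times their root mean in treated plants (range 1.05 to 9.43), against 8.40 times in untreated plants (range 3.72 to 138). In root their median level was 12.4 FPKM in treated and 4.68 FPKM in untreated plants, and in leaf 30.1 FPKM in treated and 56.8 FPKM in untreated plants. Solyc08g007130.3 on chromosome 8 had the steepest leaf difference of all members, 6.10-fold, with 35.3, 32.0 and 35.2 FPKM in treated leaf, against 203, 211 and 212 FPKM in untreated leaf. In root it had 7.07, 6.64 and 6.46 FPKM in treated plants, against 1.56, 1.66 and 1.33 FPKM in untreated plants. Its leaf level was 5.08 times its root level in treated plants and 138 times in untreated plants. Solyc07g005960.3 on chromosome 7 had 17.1, 16.5 and 18.5 FPKM in treated leaf, against 22.3, 21.0 and 36.7 FPKM in untreated leaf, and replicate 3 alone lay far above. Its log2 ratio in leaf was -0.62, and without that replicate it was -0.32, short of the leaf condition. It also missed the rule without treated leaf replicate 2. Its root ratio was 6.30-fold, with 9.55, 6.64 and 7.11 FPKM in treated plants, against 1.19, 1.19 and 1.32 FPKM in untreated plants.

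The 15 members that stayed higher in root were 9.86 times as high in root as in leaf at the median in treated plants (range 5.005 to 39.3), against 1.65 times in untreated plants (range 1.10 to 5.05). That wider gap in treated plants follows from the rule, which moves every member toward root. The median level of these 15 was 11.2 FPKM in treated leaf, against 16.9 FPKM in untreated leaf. In root their median level was 116 FPKM in treated and 38.5 FPKM in untreated plants. Solyc03g118470.3 on chromosome 3 was the most abundant of them. It had 210, 196 and 198 FPKM in treated leaf, against 427, 428 and 480 FPKM in untreated leaf. In root it had 1344, 1385 and 1315 FPKM in treated plants, against 601, 608 and 611 FPKM in untreated plants. Each organ changed by a similar factor, 2.21-fold down in leaf and 2.22-fold up in root.

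**Figure D4:**
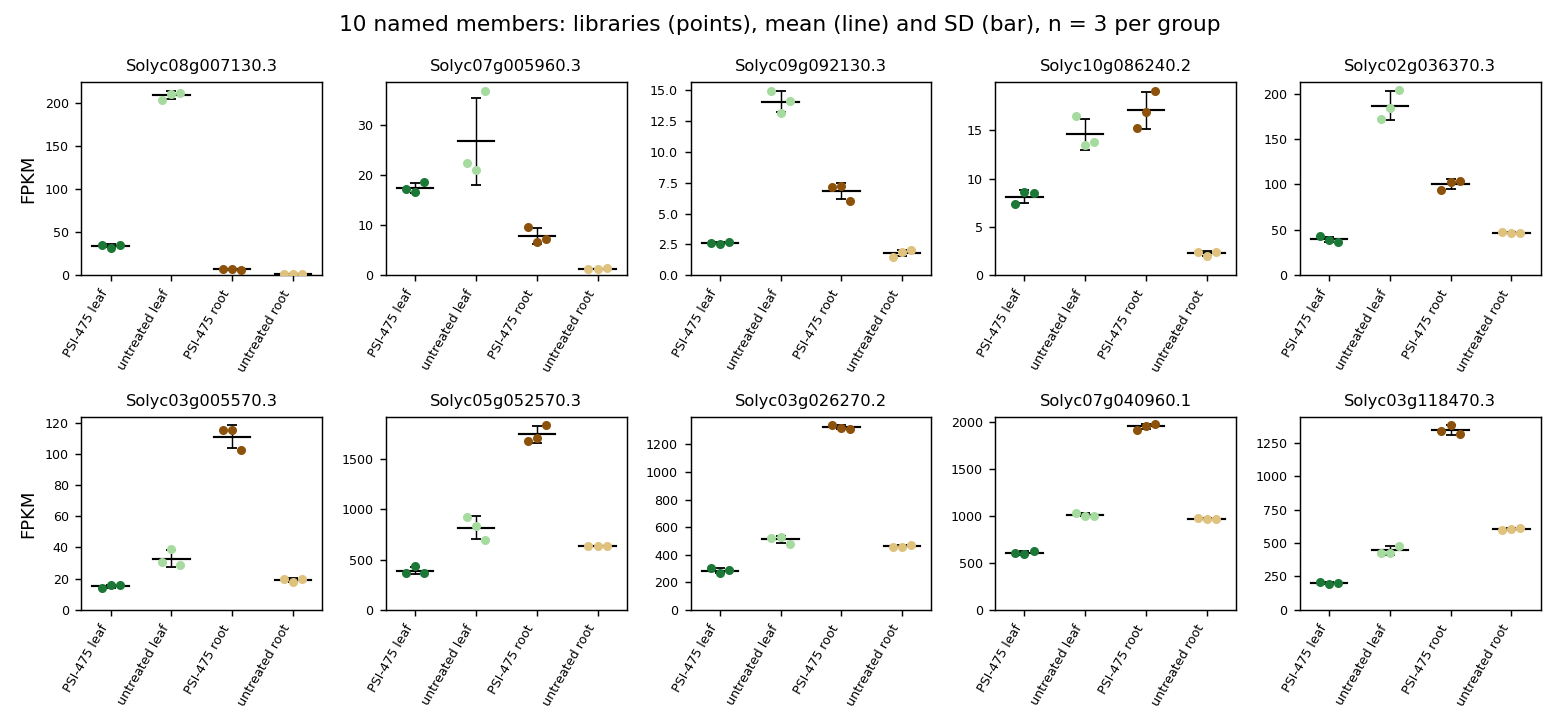
FPKM of 10 members in each library, one panel per locus with an axis from 0; points are libraries, lines means and bars SD (n = 3 per group). The upper left panel is Solyc08g007130.3, at 203 to 212 FPKM in untreated leaf against 32.0 to 35.3 in PSI-475 leaf, and the lower right Solyc03g118470.3, highest in PSI-475 root.

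The organs were closer to each other in treated than in untreated plants for 103 members, 71.0%, and for 60.3% of the loci at the floors. The rule favours this narrowing, since 130 members were higher in untreated leaf and all were moved toward root. The ranking of members by organ balance was largely kept, which the rule nearly ensures. It moves every member toward root, mostly by similar factors, while root over leaf in untreated plants ran from 0.00725 to 5.05. Over the 145 members the log2 ratio of root to leaf in treated plants and that in untreated plants had Pearson's r = 0.939 and Spearman's rho = 0.920, across loci measured in the same libraries. In 62 members the level in treated root was above that in untreated leaf, 42.8%, against 52.3% of the loci at the floors.

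Differences of at least 2-fold in leaf and 4-fold in root were found together in 5 members, which were picked out after their values were seen. Besides Solyc08g007130.3 and Solyc03g005570.3 they were Solyc10g018120.2 (2.26-fold in leaf, 5.70-fold in root), Solyc06g074800.1 (2.54-fold and 4.43-fold) and Solyc02g084430.3 (2.28-fold and 4.48-fold). Solyc10g018120.2 had 9.93, 8.88 and 11.01 FPKM in treated leaf, against 22.1, 22.9 and 22.5 FPKM in untreated leaf. In root it had 14.1, 13.6 and 13.8 FPKM in treated plants, against 2.70, 2.19 and 2.39 FPKM in untreated plants.

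Position and length were not used by the rule. Members with a tomato locus identifier numbered 143 of 145, and lay on all 12 chromosomes, with 8 to 20 on each. Their share of the loci at the floors ran from 1.23% on chromosome 7 to 2.41% on chromosome 5, against 1.66% over all. The median length recovered from the values was 1709 bases for members, against 1624 bases for the loci at the floors. The remaining members were a numbered locus with no tomato identifier and ENSRNA050029591, a non-coding RNA identifier of 79 bases. That RNA had 22.9, 19.8 and 19.3 FPKM in treated leaf, against 36.1, 27.8 and 66.9 FPKM in untreated leaf, where replicate 3 stood far above.

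A few members were next to each other. Of 94 immediate neighbours of members that met both floors, 6 were themselves members, 6.38%, against 1.66% of all loci at the floors. They formed 3 pairs, singled out after their values were seen. Solyc02g084420.3 and Solyc02g084430.3 had closely similar profiles. The first had 66.0, 64.7 and 77.0 FPKM in treated leaf, against 141, 158 and 105 FPKM in untreated leaf. The second had 43.0, 44.9 and 47.2 FPKM in treated leaf, against 101, 116 and 91.6 FPKM in untreated leaf. In root their treated means were 4.41 and 4.48 times their untreated means, and both were lowest in untreated root replicate 3, at 4.23 and 3.19 FPKM. Solyc02g083375.1 and Solyc02g083380.3 were higher in root in all plants, with treated root means of 212 and 181 FPKM, against 103 and 85.1 FPKM in untreated root. Solyc09g065155.1 and Solyc09g065160.3 were 2.24 and 2.18 times as high in leaf as in root in treated plants and 7.32 and 8.33 times in untreated plants. The counting's strand setting and the coordinates of these loci were not among the sources used here. Reads of neighbours that overlap or are near-identical could have been shared between them, so these pairs may not be independent measurements.

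The number of members depended on how libraries were scaled. With median-of-ratios scaling within each tissue, 56 of the 145 members still met the rule and no other locus did. That scaling moved the median log2 ratio of all tested loci to 0.02 from 0.28 in root and to -0.01 from -0.09 in leaf, on the limma scale. Relative to the median of all tested loci, the members' median log2 change was -0.68 in leaf and 0.97 in root as deposited, and -0.67 and 0.95 with that scaling. One factor per library shifts all loci of a tissue alike, so these differences are nearly fixed by the scaling's construction and say nothing of stability. Of the 10 members named for the most extreme values, 6 still met the rule. Solyc02g036370.3, Solyc03g118470.3 and Solyc07g040960.1 were below the root ratio, with log2 ratios of 0.81, 0.86 and 0.72, and Solyc07g005960.3 missed the leaf ratio, with -0.54.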

How the data were processed

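The deposited table holds FPKM values made by the authors for every locus in 12 libraries. Per the submitters' processing notes, the tools included fastp, featureCounts and DESeq2, with no version. Which aligner, build and gene annotation were used was not given in the sources used here. Library totals, lengths and whole fragments were recovered from the digits of the deposited FPKM values (within a tolerance of 0.001). Leaf libraries held 18190465 to 22993130 fragments, root libraries 17108347 to 20595008. No member had fewer than 7 fragments in a library.

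The members and lists were chosen with earlier results of these data known. A mean-variance trend was fitted in limma (version 3.58.1, R 4.3.3) to log2(FPKM + 1) of loci averaging 1 FPKM or more. Tests were 2-sided and p-values were adjusted over all tested loci by Benjamini-Hochberg, with calls under 0.05. Each spray comparison used the 6 libraries of its tissue, each tissue comparison all 12. Every member passed the filter, which the rule ensures. Named members were the 3 most extreme for leaf ratio, root ratio, untreated leaf level and treated root level, 10 in all; others named were nearest a threshold or are said to have been picked out. Loci of similar profile were to be named only with an annotation, so none are. Alternatives varied scaling, thresholds, pseudocount, filter, replicate block and libraries. Figures were drawn with matplotlib 3.10.9.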

Additional observations from a re-analysis of the deposited data

Results flagged for a closer look

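For 142 members every treated library lay below every untreated one in leaf and above every untreated one in root. Among the loci at the floors, 38.6% showed the first in leaf and 63.8% the second in root. The share that showed both is not given here. The choice of members fixes these directions, and the difference between organs was not tested.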

How the results depend on the processing

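With median-of-ratios scaling 56 loci met the rule, all of them members: its factors lower the ratio of treated to untreated in root, and raise it in leaf, for all loci alike. Ratios of 2 in leaf and 3 in root left 13 loci, and looser ratios in both organs gave 908. Floors of 5 FPKM in untreated leaf and 2 FPKM in treated root gave 225 loci, and floors of 20 and 10 FPKM left 93. Rescaled to TPM, 207 loci met the rule, and with group medians 138 did, of which 118 were members. Leaving out 1 library at a time gave 138 to 153 loci, of which 125 to 141 were members. Calls in leaf and root follow from the choice of members. Those of members lower in treated leaf ran from 132 to 141 with 1 library left out and from 136 to 143 under the other 5 settings, and those of members higher in treated root stayed at 145. Calls between organs stayed within 1.5 times. With the replicate block, members called lower in leaf were 143, and higher in root 145. Whether the numbers pair the samples is not given. As deviations from their group means, same-numbered treated and untreated leaf libraries correlated from -0.238 to 0.0938, and differently numbered ones from -0.235 to 0.31. The same-numbered library was the closest for replicate 3 in root and for replicate 1 of untreated root against untreated leaf, and not otherwise. Of 160 alternative log2 ratios of the 10 named members, 145 moved by less than 1 SD and 15 by more, with 0 reversed. Most of the 160 left out 1 of 3 libraries, which can hardly move a mean by 1 SD. The 145 are thus no measure of stability. Solyc07g005960.3 in leaf went from -0.62 to -0.32 without untreated leaf replicate 3 and missed the rule, yet counted as under 1 SD. All 15 larger moves came with median-of-ratios scaling or TPM. With median-of-ratios scaling the root ratios of all 10 moved by more, and 4 of the 10 no longer met the rule. Some short members rest on few fragments. Solyc06g064610.1 (318 bases) had 7 in its lowest library, Solyc11g071427.1 (195 bases) had 8 and the numbered locus (207 bases) had 9. A low root mean alone does not mark them: Solyc09g092130.3, at 1.79 FPKM in untreated root, had at least 89 in every library.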
